A study of Homo sapiens with 20 samples.

Results

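Integrins are the cell's receptors for the extracellular matrix, and laminins are the trimeric proteins of the basement membrane that several of them bind. The list examined here holds 26 integrin chains and 11 laminin chains, chosen by gene family, and each was read from its probe set of highest average signal over the 20 arrays. Of the 37 listed genes, 35 were measured: 18 integrin alpha chains, 7 beta chains and 10 laminin chains, out of 19775 genes in the table. ITGB6 and LAMA3 were not analysed here.

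An integrin is a pair of 1 alpha and 1 beta chain, and the alpha chain largely sets which ligand is bound. ITGB1 pairs with most alpha chains, ITGB4 with ITGA6 to form the laminin receptor of hemidesmosomes, ITGAV with several beta chains that bind fibronectin, vitronectin and latent TGF-beta, and ITGB2 with the alpha chains of leukocytes. A laminin is assembled from an alpha, a beta and a gamma chain. In mammary epithelium these receptors and ligands hold basal cells to the basement membrane.

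RNA was measured on Affymetrix arrays in MII cells (MCF10-T1k), an established human mammary epithelial line transformed with RAS. All cells were grown with horse serum, insulin, EGF, hydrocortisone and cholera toxin and were transfected by lipofection. The study asked about TAZ, the transcriptional coactivator encoded by WWTR1, as a mediator of Wnt signalling. APC belongs to the complex that marks beta-catenin, the Wnt effector encoded by CTNNB1, for destruction. The 5 groups of 4 arrays received siRNA against GFP (siGFP, the control), against APC (siAPC), against APC and TAZ (siAPC/siTAZ), against beta-catenin (sibcat), or against beta-catenin and TAZ (sibcat/siTAZ). No group received siRNA against TAZ alone, so the effect of TAZ siRNA was read on top of each other depletion. The labels call the 4 arrays of a group biological replicates (A to D) without saying that they came from separate cultures, so p-values measure the spread between these samples.

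Values are log2 signals, on which a difference of 1 is a doubling. Array medians lay between 5.07 and 5.11, arrays of a group correlated at 0.996 or more, and the number of arrays limits the precision. The table holds no detection calls, so a signal near or below the array medians cannot be told apart from background. Where 1 of 2 groups had a mean at or below the highest array median, the difference is therefore given as at least the distance of the brighter group from that median. Where both did, it is given as read, and its size is not a measured change in RNA. The siRNA targets moved as labelled: APC read 8.22 in the control, 7.34 after siAPC and 6.89 in siAPC/siTAZ, CTNNB1 11.94, 10.60 after sibcat and 9.20 in sibcat/siTAZ, and WWTR1 7.98 in siAPC/siTAZ and 8.41 in sibcat/siTAZ against 11.05 in the control. CTNNB1 thus fell by 1.41 from sibcat to sibcat/siTAZ, APC fell by 0.46 from siAPC to siAPC/siTAZ, and what this adds to the TAZ siRNA comparisons cannot be told apart from the loss of TAZ. The 6 measured epithelial markers of 9 lay above every array median in all groups, with group means between 8.50 (the lowest, in siAPC/siTAZ) and 13.09. Their summed linear signal was 21257 to 21971 in control arrays, 21226 to 21785 in siAPC and 18063 to 19977 in sibcat, and lower with TAZ siRNA, at 15582 to 16709 in siAPC/siTAZ and 15196 to 15554 in sibcat/siTAZ; its part in the results was not tested. In bulk RNA, fewer cells expressing a gene and less RNA per cell cannot be told apart. The difference between 3' and 5' ACTB probe sets, a measure of RNA integrity, moved with TAZ siRNA: it was 1.54 to 1.60 in siAPC against 1.87 to 2.07 in siAPC/siTAZ, and 1.76 to 1.87 in sibcat against 1.98 to 2.12 in sibcat/siTAZ, with 1.78 to 1.92 in the control. The same difference for GAPDH had means of 0.125 and 0.158 in the first pair of groups, 0.123 and 0.183 in the second and 0.0925 in the control. The part of RNA integrity in the results was not tested.

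A gene was called higher or lower at an adjusted p under 0.05 in limma, with Benjamini-Hochberg adjustment over all 19775 genes. After siAPC, 11 of the 35 genes rose and 9 fell, where 21.3% of all genes rose and 18.7% fell. After sibcat, 5 rose and 10 fell, against 21.4% and 15.7% of all genes. Both comparisons use the same 4 control arrays, and each TAZ siRNA comparison reuses the arrays of its single depletion. Adding TAZ siRNA to siAPC raised 15 of the 35 and lowered 4, against 20.7% and 22.8% of all genes. Adding it to sibcat raised 10 and lowered 4, against 18% and 13.7% of all genes. The median change over the 35 lay between -0.05 and 0.08 in these 4 comparisons, and that over all genes between -0.02 and 0. The changes thus went in both directions over individual chains. With TAZ siRNA more of them rose than fell on both backgrounds, and after sibcat more fell than rose.

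As read, the 7 genes ITGA1, ITGA2, ITGA4, ITGAV, ITGB2, LAMA4 and LAMB3 were called with a change of at least 1 log2 unit in at least 1 of these comparisons. In that comparison the groups did not overlap. There were 5 such genes after siAPC, 4 after sibcat, 3 with TAZ siRNA added to siAPC and 1 with TAZ siRNA added to sibcat. ITGA4 is in all of these counts but the last. Its signals lay mostly below the array medians, and its only bound, with TAZ siRNA added to siAPC, was at least 0.51. A change of 1 was therefore not measured for ITGA4. The share of all genes that met the same rule was 3.58%, 2.43%, 4.36% and 2.31%.

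**Figure D1:**
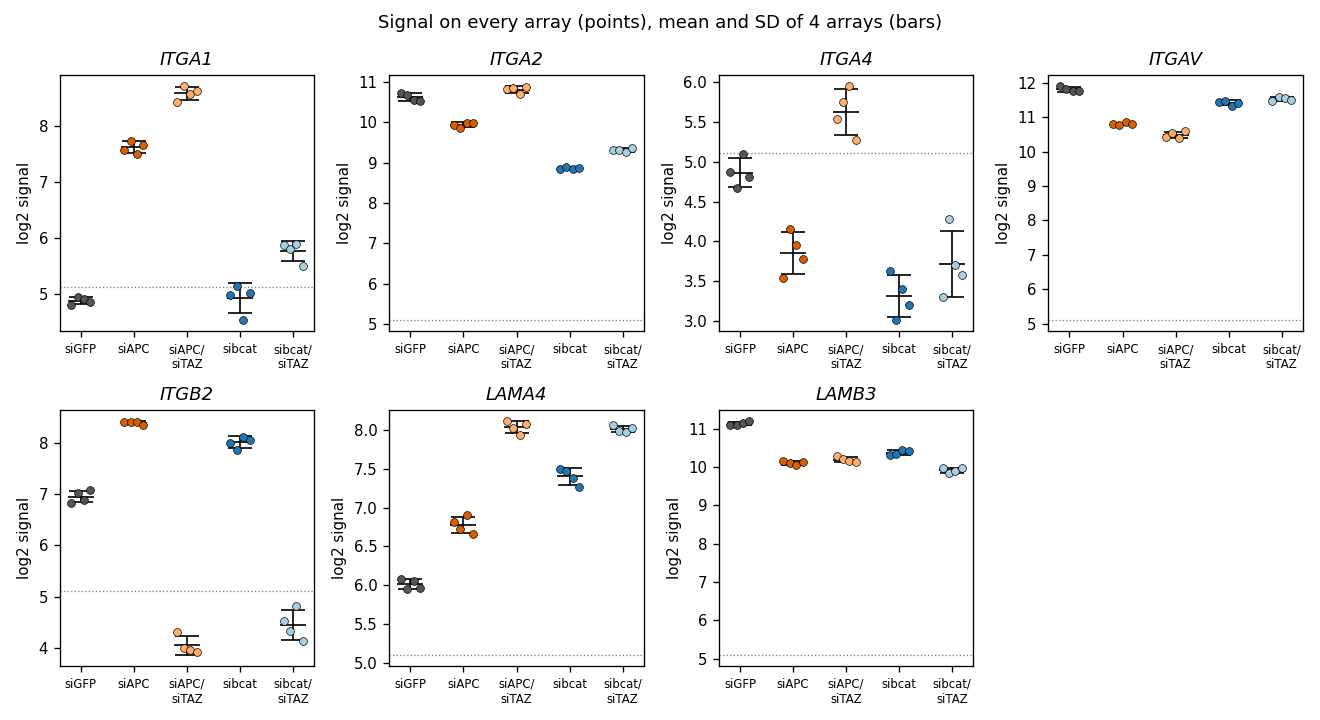
Log2 signal of the 7 genes on each of the 20 arrays (points, in 5 groups of 4), with the group mean and SD (bars); the dotted line marks the highest array median, 5.11, and each panel has its own vertical range. ITGB2 lay between 7.86 and 8.41 on all arrays of siAPC and sibcat and between 3.93 and 4.81 on all arrays with TAZ siRNA, while ITGA1 was high on the arrays that received siAPC.

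Among the receptors, ITGB2 had the largest change. ITGB2, the beta chain of the leukocyte integrins, read 6.82, 7.02, 6.89 and 7.07 in the control arrays, 8.40, 8.41, 8.40 and 8.35 after siAPC, and 8.0, 7.86, 8.12 and 8.06 after sibcat. Every array of either single depletion lay above every control array. With TAZ siRNA added it read 4.31, 3.99, 3.96 and 3.93 on the siAPC background and 4.53, 4.32, 4.81 and 4.13 on the sibcat background. All 8 of these arrays lay below every array of the other 3 groups and below the array medians. ITGB2 thus rose by 1.44 ± 0.11 (SE) after siAPC (2.71-fold, limma adjusted p = 1.84e-09) and by 1.06 ± 0.11 after sibcat (adjusted p = 1.98e-07). TAZ siRNA then lowered ITGB2 by at least 3.28 log2 units from its siAPC level (at least 9.71-fold lower, adjusted p = 8.93e-17) and by at least 2.90 from its sibcat level (at least 7.46-fold lower, adjusted p = 2.98e-15), and to at least 1.84 below the control in both. As read, the differences were -4.34 and -3.56. Both end points lay below all array medians, so the sizes of the falls on the 2 backgrounds are not compared.

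ITGB2 had 3 probe sets. As read, the 3 fell with TAZ siRNA in both backgrounds, by 0.23 to 4.34 on the siAPC background and by 0.32 to 3.56 on the sibcat background, and 2 of the 3 rose after each single depletion. The third changed by 0.04 after siAPC and 0.10 after sibcat, neither called. With the mean of the 3 probe sets, the changes were 0.76 after siAPC, 0.58 after sibcat, and -2.42 and -1.92 with TAZ siRNA, all 4 still called. The gene ITGB2-AS1, which overlaps ITGB2 in the RefSeq annotation, rose by 0.67 and 0.44 after the single depletions and fell by at least 2.21 with TAZ siRNA on the siAPC background and fell by 1.79 on the sibcat background. The part of either gene in the signal of the other was not tested.

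Whether the alpha partners of ITGB2 shared this pattern could not be read, because their signals lay near or below the array medians. ITGAL, ITGAM and ITGAX lay below the median of every array throughout, and ITGAD between 4.95 and 5.43. As read, ITGAM, the alpha chain of the complement receptor integrin, fell by 0.34 after siAPC and rose by 0.22 with TAZ siRNA added. These values lay within a range of 4.22 to 4.75, so they are not measured changes in RNA. The ITGAM call after siAPC was lost with the mean of its probe sets (-0.25, adjusted p = 0.0775). The call with TAZ siRNA was lost without siAPC replicate A, C or D or siAPC/siTAZ replicate A, C or D (0.18 to 0.23), and without sibcat/siTAZ replicate A a change of -0.18 after sibcat became called. ITGAL, the LFA-1 alpha chain, and ITGAX and ITGAD passed the test in none of the 4 comparisons.

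ITGB2 marks leukocytes in tissue, so leukocyte markers are given beside it. Of 12 such genes 10 were measured, and PTPRC (CD45), which defines leukocytes, lay between 2.67 and 2.73 in all 5 groups. CD48, TYROBP and FCER1G had group means of 3.50 to 4.64, all below the array medians. Of the 10, 5 had means above the highest array median in the control and sibcat, and 4 in each of the other groups. CD14, a monocyte marker, was the brightest of them in the control, siAPC/siTAZ and sibcat/siTAZ, with means of 7.83 in the control, 5.13 in siAPC, 5.68 in siAPC/siTAZ, 7.60 in sibcat and 8.16 in sibcat/siTAZ. The summed linear signal of the 10 was 554 to 595 in control arrays, 374 to 415 in siAPC, 262 to 298 in siAPC/siTAZ, 571 to 605 in sibcat and 562 to 583 in sibcat/siTAZ. The part of such cells in the ITGB2 signal was not tested. Of the list, LAPTM5, a lysosomal protein of blood cells, changed as ITGB2 did: it rose by 0.51 and 0.64 after the single depletions and fell by at least 2.38 and by 1.15 with TAZ siRNA.

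The collagen receptors ITGA1 and ITGA2, which pair with ITGB1 and are neighbours on chromosome 5, went different ways. ITGA1 read 4.79, 4.94, 4.91 and 4.85 in control arrays and 7.57, 7.74, 7.50 and 7.67 after siAPC. On the sibcat arrays it read 4.98, 5.14, 4.53 and 5.01. Cells with siAPC stood well above the control, and the sibcat arrays overlapped it. With TAZ siRNA it read 8.44, 8.71, 8.58 and 8.62 on the siAPC background and 5.87, 5.79, 5.89 and 5.49 on the sibcat background, above its matched single depletion on all arrays. The control and sibcat means, 4.87 and 4.92, lay below all array medians. ITGA1 rose by at least 2.51 log2 units after siAPC (at least 5.70-fold higher, 2.75 ± 0.11 as read, adjusted p = 5.56e-14), and siAPC lay at least as far above sibcat (adjusted p = 1.9e-13). A change from the control to sibcat could not be measured at these signals. TAZ siRNA raised it by 0.97 on the siAPC background and by at least 0.65 on the sibcat background.

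As read, all 3 ITGA1 probe sets rose after siAPC, by 2.35 to 2.98, and after added TAZ siRNA on that background, by 0.93 to 1.29; on the sibcat background 2 of the 3 rose with TAZ siRNA, over a range of 0.11 to 0.84. PELO, a ribosome rescue factor whose gene lies within the span of ITGA1, rose by 1.04 after siAPC and 0.18 after sibcat, and changed by -0.10 (called) and -0.04 (not called) with TAZ siRNA. Its part in the ITGA1 signal was not tested.

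ITGA2 read 10.73, 10.68, 10.55 and 10.53 in control arrays, 9.93, 9.85, 9.99 and 9.97 after siAPC, and 8.84, 8.89, 8.83 and 8.87 after sibcat. The 3 groups did not overlap, and sibcat was the lowest. With TAZ siRNA it read 10.83, 10.84, 10.69 and 10.86 on the siAPC background and 9.30, 9.31, 9.25 and 9.36 on the sibcat background. ITGA2 fell by 0.69 ± 0.05 after siAPC (adjusted p = 7.75e-10) and by 1.76 ± 0.05 after sibcat (3.40-fold, adjusted p = 7.2e-16). TAZ siRNA raised it by 0.87 on the siAPC background, to 0.18 above the control, and by 0.45 on the sibcat background, where it stayed 1.32 below the control. Both probe sets of ITGA2 gave the same calls in the 4 comparisons. ITGA10, another collagen-binding alpha chain, fell by 0.27 after siAPC and rose by 0.57 and 0.38 with TAZ siRNA, and ITGA11 was called in none of the 4.

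The promoters of some of these genes are shown because the genes moved in groups of arrays that differ in APC, beta-catenin and TAZ, and the factors these proteins work with have known core motifs. RefSeq windows of 250 bases before the transcript start (GRCh38.p14) were at hand for 24 of the 35 genes, 31 windows in all; ITGB2 is not among them. They were searched on both strands for GGAATG, the core bound by TEAD factors, CTTTGA, a core bound by TCF/LEF factors, and TGANTCA, the AP-1 core, with overlapping matches counted. GGAATG stood in 4 of the 31 windows (ITGA5, ITGA10, ITGB1 and LAMA2) and in 11.9% of all 35116 windows. CTTTGA stood in 5 (ITGA1, ITGAE, ITGAM, LAMA2 and LAMB3) against 11.2%, and TGANTCA in 1 (LAMB3) against 6.57%. Below are ITGA1 (chr5:52787666-52787915, plus strand), which rose after siAPC, its neighbour ITGA2 (chr5:52989102-52989351, plus strand), which fell, ITGA5 (chr12:54419267-54419516, minus strand), which rose in all 4 comparisons, and the LAMB3 window with matches among its 3 (chr1:209651375-209651624, minus strand). Capitals mark the motif letters on either strand, and the 3' end of each line abuts the start site.
ITGA1: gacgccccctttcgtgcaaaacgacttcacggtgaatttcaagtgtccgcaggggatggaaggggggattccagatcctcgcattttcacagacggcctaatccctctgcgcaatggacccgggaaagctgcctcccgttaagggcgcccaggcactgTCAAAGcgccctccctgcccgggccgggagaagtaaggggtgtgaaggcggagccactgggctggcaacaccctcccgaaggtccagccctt
ITGA2: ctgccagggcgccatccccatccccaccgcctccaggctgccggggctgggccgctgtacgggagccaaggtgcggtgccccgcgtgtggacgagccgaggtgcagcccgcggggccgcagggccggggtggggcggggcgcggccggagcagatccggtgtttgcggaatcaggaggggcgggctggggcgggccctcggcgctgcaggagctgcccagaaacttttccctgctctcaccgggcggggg
ITGA5: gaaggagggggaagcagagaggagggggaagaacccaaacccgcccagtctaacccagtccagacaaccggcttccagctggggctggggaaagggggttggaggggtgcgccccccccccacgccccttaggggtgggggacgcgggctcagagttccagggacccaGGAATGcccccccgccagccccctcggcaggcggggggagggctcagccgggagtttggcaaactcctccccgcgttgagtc
LAMB3: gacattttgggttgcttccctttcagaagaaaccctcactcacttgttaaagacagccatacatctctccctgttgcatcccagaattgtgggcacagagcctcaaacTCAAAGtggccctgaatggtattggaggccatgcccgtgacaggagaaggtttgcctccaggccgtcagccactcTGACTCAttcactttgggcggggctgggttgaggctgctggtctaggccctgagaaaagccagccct
The ITGA1 window holds CTTTGA on the reverse strand from 92 to 87 bases before the start, the ITGA5 window GGAATG from 82 to 77 bases before it, and the ITGA2 window none of the motifs. The LAMB3 window holds CTTTGA on the reverse strand from 142 to 137 bases and TGANTCA from 67 to 61 bases before the start. The windows of ITGA4, ITGAV and LAMA4, genes also described in full, hold none of the motifs and are not printed. These are matches of letters, and binding was not measured.

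The fibronectin receptor chain ITGA5 was among the chains that moved the same way throughout: it rose by 0.25 after siAPC, 0.31 after sibcat, and 0.50 and 0.53 with TAZ siRNA added. It read 6.99 to 7.27 in control arrays and 7.87 to 8.08 on the 8 arrays with TAZ siRNA, which did not overlap. On the sibcat arrays it read 7.30, 7.34, 7.39 and 7.87, so replicate D stood apart, and without it the change was 0.18 (adjusted p = 0.0308). Without siGFP replicate A the ITGA5 changes after siAPC and sibcat were 0.19 and 0.25, neither called. The call after siAPC was also lost without siAPC replicate B or C or siGFP replicate B (0.23 to 0.24), and that after sibcat with only the arrays compared in the fit (adjusted p = 0.0842). ITGA4, which binds VCAM-1 and fibronectin and also pairs with ITGB7, read 4.87, 4.67, 5.10 and 4.81 in control arrays, 3.54, 4.15, 3.95 and 3.78 after siAPC, and 3.63, 3.02, 3.41 and 3.20 after sibcat. All arrays of the single depletions lay below the control. With TAZ siRNA it read 5.53, 5.75, 5.94 and 5.27 on the siAPC background and 3.31, 4.28, 3.70 and 3.58 on the sibcat background. The siAPC/siTAZ arrays lay above the highest array median of 5.11, all other arrays lay below it, and sibcat/siTAZ overlapped sibcat.

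The control, siAPC, sibcat and sibcat/siTAZ means of ITGA4 all lay below the array medians, so the sizes of the differences among them are as read: -1.01 ± 0.19 after siAPC (adjusted p = 0.000171), -1.55 ± 0.19 after sibcat (adjusted p = 1.28e-06) and 0.40 with TAZ siRNA on the sibcat background (adjusted p = 0.118). TAZ siRNA raised ITGA4 by at least 0.51 log2 units on the siAPC background (1.77 ± 0.19 as read, adjusted p = 1.36e-07). As read, of 4 probe sets 3 fell after each single depletion and 4 rose with TAZ siRNA on the siAPC background. The mean of the 4 gave -0.57, -0.72, 1.01 and 0.23 in these comparisons, the last called (adjusted p = 0.0162). Without sibcat/siTAZ replicate A, the sibcat background change was 0.54 (adjusted p = 0.0379). CERKL overlaps ITGA4 in the annotation.

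ITGB1, the shared partner of ITGA1, ITGA2, ITGA4, ITGA5 and ITGA6, hardly moved. Its signal lay between 12.94 and 13.39 on all 20 arrays. It was not called after siAPC (-0.09) or sibcat (0.05), and it rose by 0.16 and 0.21 with TAZ siRNA. Of its 7 probe sets, 2 had a value below 0 in the first TAZ siRNA comparison (-0.08 and -0.10) and 1 in the second (-0.02), none of them called. With the mean of the 7 the rise of ITGB1 on the siAPC background was 0.09 and not called (adjusted p = 0.0912). ITGA3, a laminin receptor chain that also pairs with ITGB1, was called in none of the 4 comparisons, and neither were ITGA2B, the platelet chain, ITGA8 and ITGA9. ITGA7, a muscle laminin receptor chain, lay below all array medians and changed by 0.24 after siAPC and -0.19 with TAZ siRNA added, both called. For ITGA7 the first call was lost with the mean of its probe sets (0.09, adjusted p = 0.188), and the second without siAPC replicate A, C or D or siAPC/siTAZ replicate A or D (-0.19 to -0.16).

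**Figure D2:**
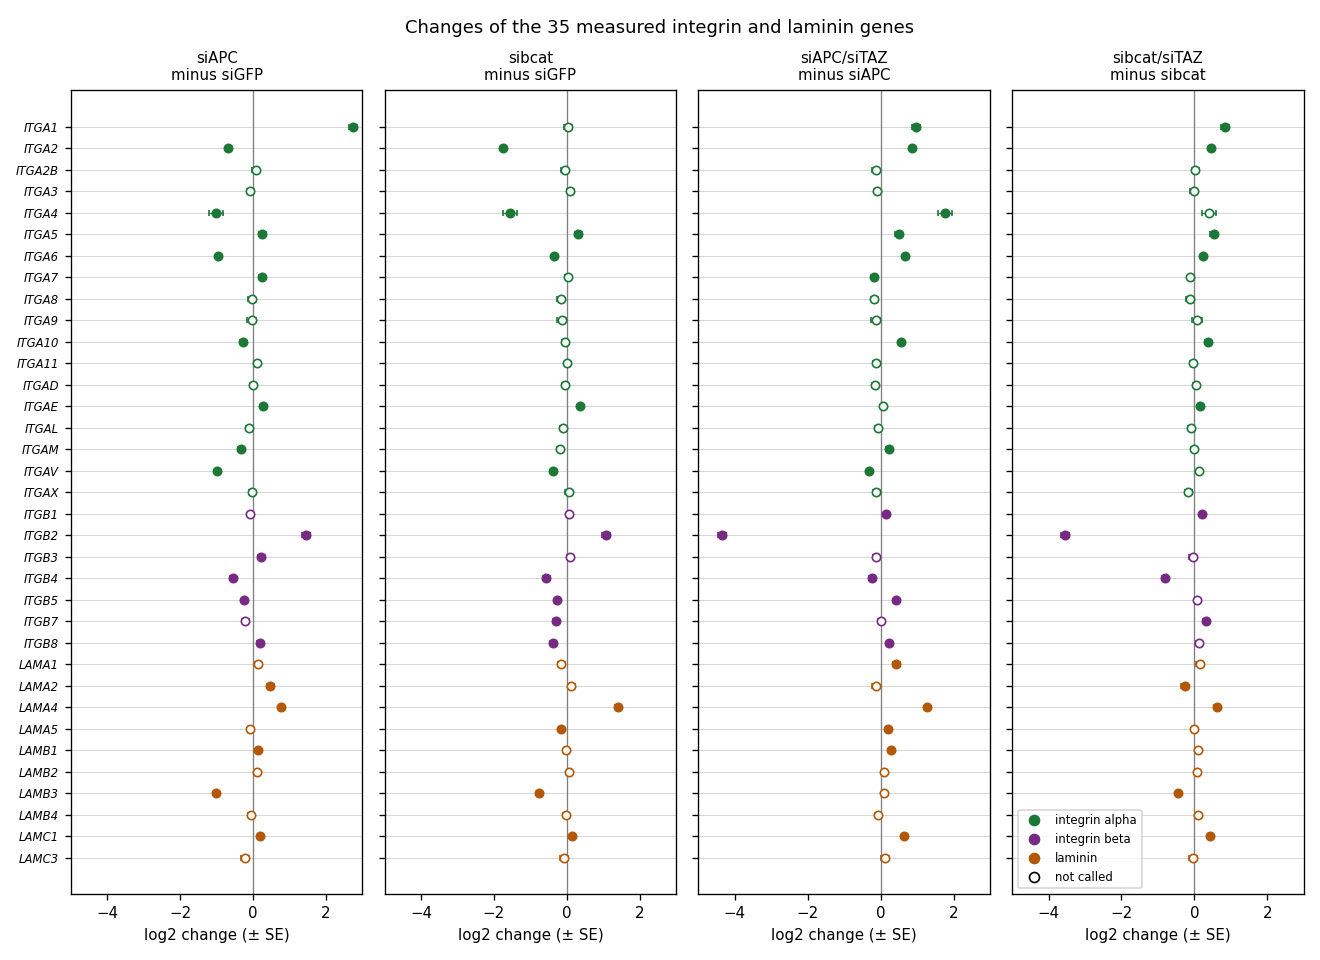
Change in log2 signal (point) with its standard error (bar) for each of the 35 genes, in rows, in 4 comparisons; filled points passed an adjusted p of 0.05, open points did not, and colours give the family. As read, ITGB2 fell by 4.34 and fell by 3.56 with TAZ siRNA, to signals below the array medians, and the rises of ITGA1 after siAPC (2.75, from such signals) and of LAMA4 in all 4 panels lie on the other side of 0.

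The hemidesmosome receptor ITGA6/ITGB4 and the laminin chain LAMB3, a part of the laminin that this receptor binds, were lower after both single depletions. LAMB3 read 11.09, 11.10, 11.15 and 11.19 in control arrays, 10.16, 10.10, 10.05 and 10.12 after siAPC, and 10.32, 10.33, 10.43 and 10.41 after sibcat. It lay below the control on all 8 arrays. With TAZ siRNA it read 10.28, 10.21, 10.15 and 10.12 on the siAPC background and 9.96, 9.84, 9.89 and 9.98 on the sibcat background, the lowest of the groups. LAMB3 fell by 1.03 ± 0.045 after siAPC (adjusted p = 3.61e-13) and by 0.76 ± 0.045 after sibcat (adjusted p = 5.66e-11). TAZ siRNA changed it by 0.08 on the siAPC background (adjusted p = 0.159) and lowered it by 0.45 on the sibcat background (adjusted p = 1.12e-07), and the difference of 0.54 ± 0.064 passed the test (adjusted p = 1.99e-06). LAMB3 had a single probe set.

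ITGA6 read 11.81 to 12.04 in control arrays, 10.89 to 11.06 after siAPC and 11.46 to 11.69 after sibcat, falling by 0.95 ± 0.055 and 0.36 ± 0.055. ITGB4 fell by 0.56 ± 0.086 after either. With TAZ siRNA the partners parted: ITGA6 rose by 0.66 and 0.23, and ITGB4 fell further, by 0.24 and 0.80, to 8.29 to 8.53 on the sibcat/siTAZ arrays against 9.68 to 9.88 in the control. For ITGB4, 3 of 5 probe sets fell in all 4 comparisons; 1 dimmer probe set read 0.12 after siAPC, not called. The fall of ITGB4 on the siAPC background was no longer called without siAPC replicate A, B or D or siAPC/siTAZ replicate B, C or D (-0.24 to -0.21). Of the other hemidesmosome and laminin receptor genes listed, 4 of 7 were measured and none was called after siAPC. After sibcat PLEC (plectin, which ties ITGB4 to keratin) and CD151 (a tetraspanin partner of laminin receptors) rose by 0.40 and 0.30. With TAZ siRNA CD151 fell by 0.52 and 0.35, DST (dystonin) rose by 0.23 and 0.21, and PLEC fell by 0.22 on the sibcat background. The median change of those 4 was 0.10, 0.17, -0.13 and -0.15 in the 4 comparisons.

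ITGAV fell after both single depletions and more after siAPC. It read 11.90, 11.82, 11.78 and 11.76 in control arrays, 10.80, 10.77, 10.86 and 10.82 after siAPC, and 11.45, 11.49, 11.32 and 11.42 after sibcat. The 3 groups did not overlap. With TAZ siRNA it read 10.43, 10.54, 10.39 and 10.59 on the siAPC background, below all other groups, and 11.49, 11.59, 11.57 and 11.50 on the sibcat background. The changes were -1.0 ± 0.05 after siAPC (adjusted p = 2.16e-12), -0.39 ± 0.05 after sibcat (adjusted p = 2.17e-06) and -0.32 ± 0.05 with TAZ siRNA on the siAPC background (adjusted p = 1.66e-05). On the sibcat background the change was 0.12, with adjusted p = 0.0833, and 0.0193 with a robust trended prior. ITGAV had a single probe set.

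Beta partners of ITGAV changed in both directions. ITGB5, a vitronectin receptor chain, fell by 0.24 and 0.27 after the single depletions and rose by 0.42 with TAZ siRNA on the siAPC background; with the mean of its probe sets the first was -0.09 (adjusted p = 0.0565). ITGB8, which with ITGAV activates TGF-beta, changed by 0.19 after siAPC (called), fell by 0.38 after sibcat and rose by 0.24 with TAZ siRNA on the siAPC background. The ITGB8 call after siAPC was lost with the mean of its 5 probe sets (-0.07, adjusted p = 0.36), and another probe set fell by 0.37. It was also lost without any 1 of the siAPC arrays, siGFP replicate C or D, siAPC/siTAZ replicate A or B, sibcat replicate D or sibcat/siTAZ replicate B, C or D (0.15 to 0.21). After sibcat the mean of the ITGB8 probe sets was -0.11, not called (adjusted p = 0.125). ITGB3, the beta chain of the platelet and vitronectin receptors, rose by 0.23 after siAPC at a mean of 5.82, while 4 of its other probe sets read -0.09 to 0.00, not called. The ITGB3 call was lost without any 1 of the siAPC arrays, siGFP replicate A, C or D, siAPC/siTAZ replicate A, sibcat replicate A, B or C or sibcat/siTAZ replicate B (0.20 to 0.24), and with the mean of its probe sets (0.01, adjusted p = 0.941). ITGAE, the alpha chain that binds E-cadherin, rose by 0.26 and 0.36 after the single depletions and by 0.15 with TAZ siRNA on the sibcat background. Its partner ITGB7 read 0.30 lower after sibcat and 0.31 higher with TAZ siRNA added to it, both called. ITGB7 lay between 5.14 and 5.75 on all arrays, near the array medians, and its sibcat arrays overlapped the control. The last ITGAE rise was not called without sibcat replicate B (0.12) or sibcat/siTAZ replicate A (0.13). ITGB7 read -0.21 after siAPC, not called with all arrays and called without siAPC replicate A, B or C, siGFP replicate A or siAPC/siTAZ replicate C (-0.29 to -0.21).

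Among the laminins, LAMA4 rose in all 4 comparisons on its brightest probe set. LAMA4, the alpha chain of vascular and mesenchymal basement membranes, read 6.08, 5.95, 6.06 and 5.97 in control arrays, 6.81, 6.72, 6.90 and 6.66 after siAPC, and 7.50, 7.47, 7.38 and 7.26 after sibcat. The 3 groups did not overlap. With TAZ siRNA it read 8.11, 8.03, 7.94 and 8.07 on the siAPC and 8.06, 7.98, 7.97 and 8.03 on the sibcat background, close to each other. LAMA4 rose by 0.76 ± 0.059 after siAPC (adjusted p = 2.05e-09), 1.39 ± 0.059 after sibcat (adjusted p = 3.26e-13), and by 1.27 and 0.61 with TAZ siRNA. The combined depletions lay 2.02 and 2.00 above the control.

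These LAMA4 values rest on 1 of 5 probe sets. None of the other 4 rose in any of the 4 comparisons, and 1 of them fell by 0.47 after siAPC (adjusted p = 9.12e-05 over all probe sets). With the mean of the 5 the change after siAPC was 0.05 (adjusted p = 0.493), after sibcat 0.30, and with TAZ siRNA 0.30 and 0.15, the last 3 called. LAMA4-AS1, which overlaps the gene, was called in none of the 4.

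**Figure D3:**
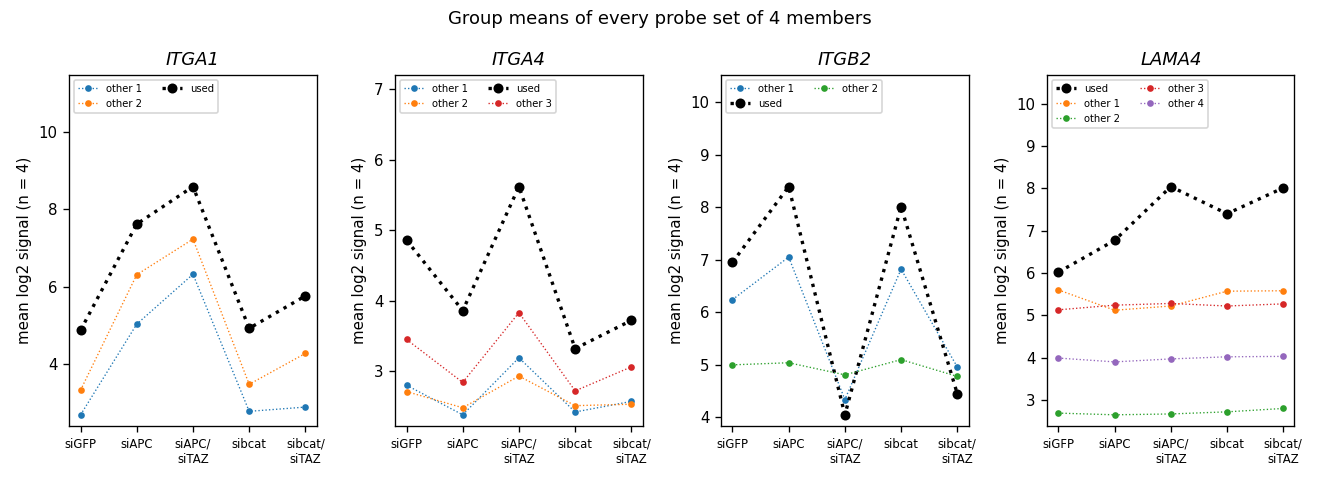
Mean log2 signal (n = 4) of every probe set of ITGA1, ITGA4, ITGB2 and LAMA4 in the 5 groups; black marks the probe set used, colours the others, and dotted lines only join points of a probe set. The ITGA1 probe sets were parallel across the siAPC groups, whereas 1 of the 5 LAMA4 probe sets carried the rise from 6.02 to 8.04.

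LAMC1, the gamma chain of most laminins, rose in all 4 comparisons, by 0.20, 0.13, 0.63 and 0.44, from 11.55 to 11.61 in control arrays to 12.41 to 12.44 in siAPC/siTAZ and 12.13 to 12.18 in sibcat/siTAZ. LAMB1, its usual beta partner, rose by 0.14 after siAPC and 0.28 with TAZ siRNA added to it, and was not called after sibcat (-0.02) or with TAZ siRNA added to that (0.10). LAMA5, the main alpha chain of mature epithelial basement membranes, fell by 0.16 after sibcat and rose by 0.20 with TAZ siRNA on the siAPC background. LAMA1 rose by at least 0.34 in that same comparison (0.43 as read). Its mean was 5.45 in siAPC/siTAZ and below all array medians in every other group. Another LAMA1 probe set read -0.14, not called, and the mean of its probe sets 0.15, not called (adjusted p = 0.209). LAMA2, the muscle laminin chain, rose by at least 0.25 after siAPC and, as read, fell by 0.27 with TAZ siRNA on the sibcat background, at group means of 4.74 to 5.36, near the array medians. The fall of LAMA2 was not called without sibcat replicate A or D or sibcat/siTAZ replicate A, C or D (-0.28 to -0.23), and the rise of LAMB1 after siAPC not without siAPC replicate B or C or siGFP replicate C or D (0.11 to 0.14). With only the arrays compared in the fit, the sibcat changes of LAMC1 (adjusted p = 0.0522) and LAMA5 (adjusted p = 0.0607) and the siAPC change of LAMB1 (adjusted p = 0.0586) missed the threshold. LAMB2, LAMB4 and LAMC3 were called in none of the 4, and LAMB4 and LAMC3 lay below all array medians. On the sibcat background the TAZ siRNA change became called for LAMB2 without sibcat replicate D (0.16) and for LAMB4 without sibcat replicate C (0.19).

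Partner chains were set side by side, counting a pair by the calls of both genes. Some chains lay near or below the array medians, and for these a missing or opposite call does not measure discordance. After siAPC such pairs include ITGAL, ITGAX and ITGAM with ITGB2, and ITGA4 and ITGA7 with ITGB1. Of 24 integrin pairs 23 were measured. After siAPC, 2 pairs moved the same way, 3 in opposite ways, 14 in 1 chain alone and 4 in neither. After sibcat the counts were 4, 1, 10 and 8. With TAZ siRNA on the siAPC background they were 6, 6, 9 and 2, and on the sibcat background 6, 1, 12 and 4. The pairs share chains, ITGB1 above all, so they are no independent units. After siAPC the pairs that moved together were ITGA6 with ITGB4 and ITGAV with ITGB5, both down. With TAZ siRNA on the siAPC background, ITGB1 rose together with ITGA1, ITGA2, ITGA4, ITGA5, ITGA6 and ITGA10. These pairs all rest on the ITGB1 call, with the limit on ITGB1 given above.

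Of 12 laminin pairs 11 were measured. After siAPC, 5 moved the same way, 0 in opposite ways, 5 in 1 chain alone and 1 in neither, and with TAZ siRNA on that background the counts were 7, 0, 4 and 0. After sibcat they were 1, 1, 7 and 2, and with TAZ siRNA on that background 1, 1, 6 and 3. The 5 pairs that moved together after siAPC were LAMB1 with LAMC1, and LAMA2 and LAMA4 with each of these. They share chains, and the limits on LAMA2, LAMA4 and LAMB1 given above apply to them. With TAZ siRNA on the siAPC background, pairs with LAMA1 and LAMA4 were among the 7, with the limits on these chains given above. LAMA4 and LAMC1 rose together in all 4 comparisons, with the same limit on LAMA4.

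**Figure D4:**
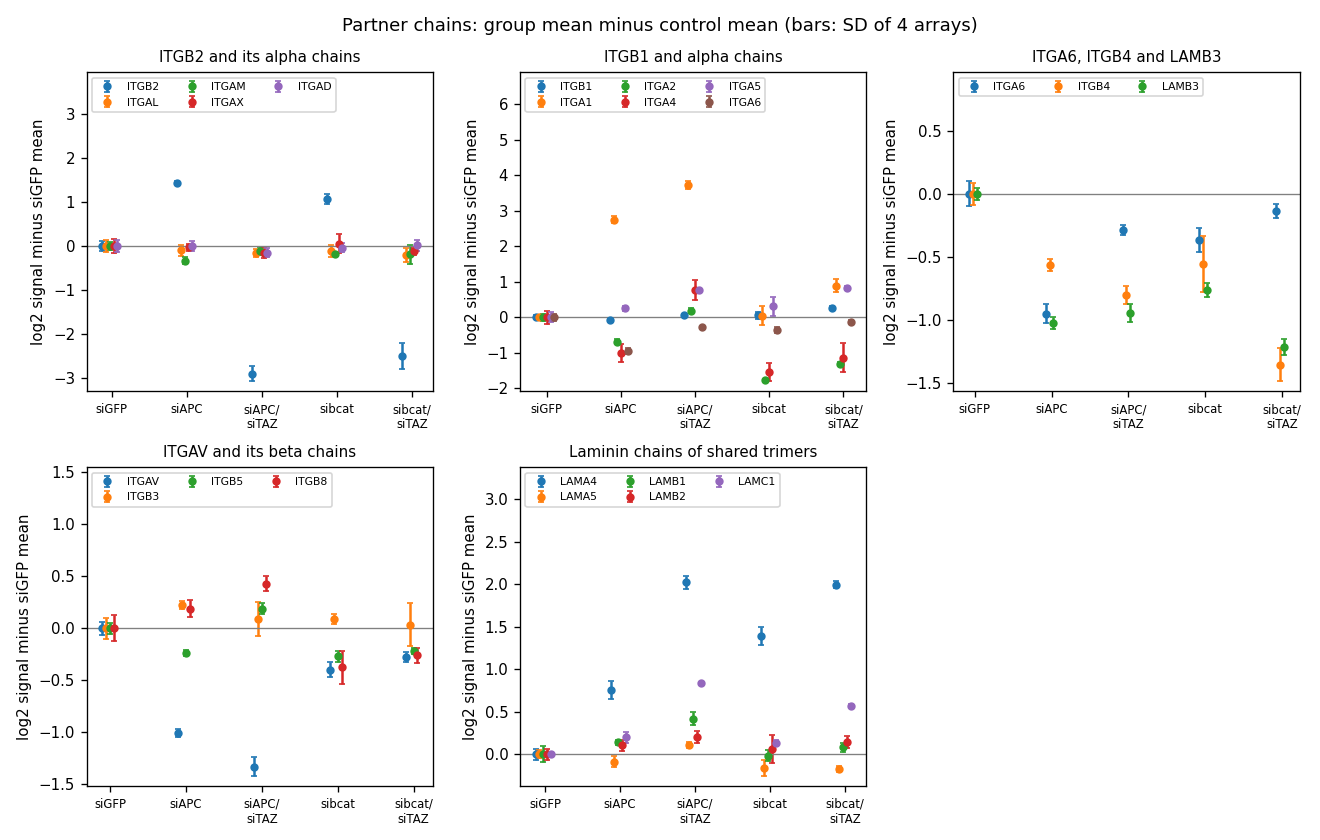
Group mean of log2 signal minus the control mean, with the SD of 4 arrays, for partner chains in 5 panels with their own vertical ranges. ITGB2 moved, while its alpha chains lay near or below the array medians, where a change could not be read. ITGB1 stayed near 0 while its alpha chains spread from -1.76 to 3.71 as read. ITGA6 and ITGB4 were both lowered by siAPC and parted with TAZ siRNA.

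Compared with each other, siAPC and sibcat differed in 15 of the 35 genes, against 33.8% of all genes, 9 being higher and 6 lower in siAPC. With the mean of all probe sets the count was 10, and leaving out 1 array gave 12 to 16. The differences that follow are those of the probe set used for each gene. The largest differences were those of ITGA1 (at least 2.51) and ITGA2 (1.08 ± 0.05). ITGAV and ITGA6 were lower in siAPC, by 0.61 and 0.59, as was LAMA4, by 0.63, and ITGB8 was higher by 0.57. The combined depletions differed in 19 of the 35, against 45% of all genes, with ITGA1 (2.83), ITGA2 (1.5) and ITGA4 (at least 0.51) higher in siAPC/siTAZ and ITGAV lower by 1.05. Against the control, 14 genes were higher and 5 lower in siAPC/siTAZ, 19 in all where 47.2% of all genes were called, and 7 were higher and 11 lower in sibcat/siTAZ, 18 in all against 44.9%. ITGB4 ended 0.80 and 1.35 below the control in the combined depletions, and ITGA5 0.76 and 0.83 above it.

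The effect of TAZ siRNA differed between the backgrounds in 11 of the 35 genes, against 27.7% of all genes. For 2 of the 11, ITGA4 and ITGB2, the difference rests on groups below all array medians and is not read as a difference in effect. Of the other 9, it was more positive on the siAPC background for LAMA4 (0.66), ITGB4 (0.56), LAMB3 (0.54), ITGA6, ITGA2, ITGB5, LAMA5 and LAMC1, and more negative for ITGAV (-0.44). With the mean of all probe sets the LAMA4 difference was 0.15 and that of ITGB4 0.18, neither called (adjusted p = 0.189 and 0.0818). For ITGA1 it was 0.12, not called, and 0.48, called, with the mean of its probe sets (limma adjusted p = 0.000951). The sibcat mean of ITGA1 was 4.92, below the array medians. The value of 0.12 is therefore not a measured difference and does not show an equal effect on the 2 backgrounds. Another ITGA1 probe set read 1.18, called, with means of 2.77 in sibcat and 2.88 in sibcat/siTAZ, below the array medians. The LAMA5 difference of 0.20 was not called without siAPC replicate A or D, siAPC/siTAZ replicate C, sibcat replicate D or sibcat/siTAZ replicate B (0.16 to 0.20). Differences not called with all arrays became called for ITGA3 (-0.21) and LAMB1 (0.21) without sibcat replicate D, for LAMA1 (0.38) and LAMB4 (-0.26) without sibcat replicate C, for ITGAM (0.33) without sibcat/siTAZ replicate A, and for ITGB7 without siAPC replicate D (-0.39) or siGFP replicate A (-0.30).

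Inside the cell, integrins act through adhesion complexes that join them to actin. Of 33 listed genes of these complexes 31 were measured: 10 rose and 7 fell after siAPC, 10 rose and 6 fell after sibcat, 6 rose and 18 fell with TAZ siRNA on the siAPC background, and 2 rose and 16 fell on the sibcat background. The shares of all genes that rose and fell are those given above, 21.3% and 18.7%, 21.4% and 15.7%, 20.7% and 22.8%, and 18% and 13.7%. The median changes were 0.06, 0.06, -0.21 and -0.16, against 0, 0, -0.02 and 0 over all genes. After siAPC the integrin activator FERMT2 (kindlin-2, 0.65), TLN2 (talin-2, 0.64) and VCL (vinculin, 0.54) rose most, and NEDD9, an adaptor of focal adhesions, fell by 0.85, TNS4 by 0.43 and SRC by 0.37. After sibcat TNS2 (0.62), TNS3 (0.43) and TLN2 (0.37) rose most, NEDD9 fell by at least 1.62 and SRC by 0.48, and FERMT1 and FERMT2 each by 0.36.

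TAZ siRNA lowered KANK2, a talin-binding protein, by 1.22 on the siAPC and 0.81 on the sibcat background. On the siAPC background PARVA (parvin-alpha, a partner of ILK) fell by 1.13 and ITGB1BP1 by 0.90, and NEDD9 (1.14), LIMS1 (0.48 as read, below the array medians) and SRC (0.41) rose. On the sibcat background TLN2 fell by 0.57 and FERMT2 by 0.55, and TNS1 (0.34) and SRC (0.27) rose.

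Most other basement membrane genes rose after the single depletions. Of 15 genes, all measured, 12 rose and 1 fell after siAPC, where 21.3% of all genes rose and 18.7% fell, and 11 rose and 0 fell after sibcat, against 21.4% and 15.7%. With TAZ siRNA 8 rose and 5 fell on the siAPC background, against 20.7% and 22.8%, and 5 rose and 5 fell on the sibcat background, against 18% and 13.7%. The median changes were 0.45, 0.36, 0.18 and 0.10, against 0, 0, -0.02 and 0 over all genes. After siAPC the collagen IV chains COL4A4 (at least 2.21) and COL4A3 (at least 0.87), which are transcribed from a shared promoter region, and NID2 (nidogen-2, a laminin-binding linker, at least 2.58) rose from signals below the array medians, and HSPG2 (perlecan) fell by 0.26. After sibcat COL4A4 rose by at least 1.90, COL4A3 by at least 0.51 and NID2 by at least 2.17. With TAZ siRNA COL4A3 and COL4A4 fell to signals below the array medians on both backgrounds, and NID2 fell by 2.22 and fell by 1.08. The 4 other collagen IV chains rose with TAZ siRNA on both backgrounds: COL4A6 by 0.99 and 0.73, COL4A1 by 0.62 and 0.44, COL4A5 by 0.55 and 0.31 and COL4A2 by 0.49 and 0.24. COL4A2, and COL4A5 on the siAPC background, were named after their values were seen. FREM2, a basement membrane protein of the Fraser complex, read 1.28 higher on the siAPC background, from 3.70 to 4.97, both below the array medians.

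Of 25 other integrin ligands 24 were measured: 8 rose and 4 fell after siAPC, where 21.3% of all genes rose and 18.7% fell, and 9 rose and 4 fell after sibcat, against 21.4% and 15.7%. With TAZ siRNA 10 rose and 6 fell on the siAPC background, against 20.7% and 22.8%, and 8 rose and 6 fell on the sibcat background, against 18% and 13.7%. Their median changes were 0.05, 0.04, 0 and 0.02, against 0, 0, -0.02 and 0 over all genes. EDIL3, a ligand of ITGAV integrins, rose by 4.40 after siAPC and 3.87 after sibcat, and fell by 1.53 and 3.13 with TAZ siRNA. CCN1 and CCN2, matricellular ligands and known TAZ targets, rose by 3.37 and 3.27 after siAPC, and when TAZ siRNA was added CCN1 fell by 3.90 and CCN2 by at least 5.92. THBS1 (thrombospondin-1) fell by 2.30 in the same comparison. CCN2 also stood higher after sibcat, at 10.56 against 7.76 in the control, and fell by at least 5.45 with TAZ siRNA on that background. COL1A1, a chain of the collagen that ITGA1 and ITGA2 receptors bind, fell by 1.02 after siAPC and 0.80 after sibcat and rose by 2.68 and 1.83 with TAZ siRNA. LTBP1 rose by 1.02 and 0.68 with TAZ siRNA, TGFB3 by 0.78 on the siAPC background, and SPP1 (osteopontin) read 0.62 higher on the sibcat background, below the array medians in all groups. CDH1 (E-cadherin, the ligand of ITGAE) fell by 0.24 after siAPC and 0.76 after sibcat.

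COL1A1 is also a fibroblast marker, and all 7 fibroblast markers listed were measured. Their summed linear signal was 5843 to 6335 in control arrays, 3015 to 3155 in siAPC, 9091 to 9353 in siAPC/siTAZ, 4193 to 4444 in sibcat and 8574 to 9155 in sibcat/siTAZ. It was highest on the arrays with TAZ siRNA and lower than in the control after either single depletion. LAMA4, LAMC1 and ITGA5 were highest with TAZ siRNA too, and they were called higher after both single depletions. ITGB2 was lowest with TAZ siRNA. The limits on LAMA4 and ITGA5 given above apply here. DCN (decorin) had the highest signal of the list in every group, COL3A1 rose by at least 4.75 and by at least 3.05 with TAZ siRNA, and PDGFRA and LUM were called in none of the 4 comparisons. Their part in the results was not tested.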

How the data were processed

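RNA of 20 samples, 1 array each, was analysed. The deposited values are on a log2 scale, as their range shows, and the authors made them with RMA per the submitters' processing notes, which corrects background, normalizes by quantiles and summarises probes. The table held 54675 probe sets; 41037 carried 1 symbol that matched a current RefSeq gene name. Bounds on differences from groups at or below the highest array median were added after the values were seen. Each gene was read from its probe set of highest average signal, with no filter on low signals. Genome build of the annotation, RMA software and time of harvest are not given in these sources.

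Groups were compared with limma 3.58.1 in R 4.3.3: 5 group means fitted to 20 arrays (15 residual degrees of freedom, prior 3.39), empirical Bayes moderation, two-sided, Benjamini-Hochberg over 19775 genes in each of 9 comparisons. The script was tested on simulated data. A gene was described in full where at least 1 of 4 comparisons met 3 conditions. These were a change of 1 or more as read, an adjusted p under 0.05 and groups that did not overlap. From each pathway list the 3 largest called changes in either direction of a comparison were named. The members, lists and tests were chosen with earlier results of these data known. The 10 alternatives covered probe set choice, low-signal filters, scaling, the prior, the arrays fitted, a replicate block and leaving out each array.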

Additional observations from a re-analysis of the deposited data

Results flagged for a closer look

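In 13 of 175 groups of 4 arrays (35 genes in 5 groups), 1 array stood apart from the other 3 by Dixon's test; chance gives about 1 in 20 groups. Replicate D held 6 of them: ITGA5 in sibcat was high at 7.87, ITGB7 in siAPC low at 5.14, ITGAD in sibcat low at 5.05, ITGA8 in siAPC/siTAZ low at 4.86, ITGB3 in siAPC/siTAZ low at 5.44, and ITGB2 in siAPC low at 8.35 against 8.40 to 8.41. ITGB2 in siAPC/siTAZ replicate A was high at 4.31. The remaining 6 were ITGAE in siAPC/siTAZ replicate A (10.52), ITGB5 in sibcat replicate C (10.06) and sibcat/siTAZ replicate B (9.99), ITGB8 in siAPC replicate C (11.16), LAMC1 in siGFP replicate A (11.55) and LAMC3 in sibcat/siTAZ replicate B (4.77).

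For 11 genes the effect of TAZ siRNA differed between the siAPC and sibcat backgrounds by the limma test of the difference itself. The difference, siAPC background minus sibcat background, was 1.37 for ITGA4, 0.66 for LAMA4, 0.56 for ITGB4, 0.54 for LAMB3, 0.44 for ITGA6, 0.42 for ITGA2, 0.37 for ITGB5, 0.20 for LAMA5, 0.20 for LAMC1, -0.44 for ITGAV and -0.78 for ITGB2. For ITGB2 both groups with TAZ siRNA, and for ITGA4 all groups but siAPC/siTAZ, lay below the array medians, so these 2 values are not measured differences in effect.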

How the results depend on the processing

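The counts of called genes in the 9 comparisons stayed within 1.5 times the reported counts under all alternatives run. Leaving out 1 array gave 17 to 21 after siAPC (20 with all arrays), 14 to 16 after sibcat (15), 16 to 19 with TAZ siRNA on the siAPC background (19) and 13 to 15 on the sibcat background (14). With the mean of all probe sets these counts were 15, 14, 18 and 17. With a replicate block they were 18, 15, 19 and 13. The calls of ITGB3 and ITGB8 after siAPC and of LAMA2 with TAZ siRNA on the sibcat background were lost. Same-letter residuals of different groups correlated at a median of 0.027 (-0.0879 to 0.156 over 40 pairs), and 7 of 20 arrays matched their own letter best. These values show no strong effect shared by a letter, but they cannot establish that the arrays were unpaired.

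Directions of called single genes turned only with the choice of probe set. After siAPC, other probe sets read -0.47, -0.09 and -0.05 for LAMA4, -0.37, -0.31 and -0.03 for ITGB8 (-0.07 as the mean of all), -0.09, -0.07, -0.04 and 0 for ITGB3, -0.10 for LAMA2, -0.06 for ITGA7, 0.14 for ITGB5 and 0.12 for ITGB4. After sibcat they read 0.20 and 0.02 for ITGB8 and -0.03 for LAMA4. With TAZ siRNA on the siAPC background they read -0.10 and -0.08 for ITGB1 and -0.14 for LAMA1, and on the sibcat background -0.02 for ITGB1. In that last comparison ITGB5 (0.06) and ITGB3 (-0.05) were not called, and other probe sets read -0.35 and 0.29. The difference between the backgrounds read -0.06 and -0.02 for LAMA4, -0.23 for ITGB4 and 0.09 for ITGB2 on other probe sets. These probe sets were dimmer than those used; the cause was not tested. Probe sets read different stretches of a transcript, and 10 of the 35 genes had a single one. Signals near the array medians limit what can be said of ITGA4, LAMA2, ITGB3 and ITGB7.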
